A study of Taeniopygia guttata with 24 samples.

Results

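The 13 glutamate receptor genes described here are GRIA2, GRIA3, GRIA4, GRIN1, GRIN2A, GRIN2B, GRIN3A, GRIK1, GRIK4, GRM2, GRM3, GRM7 and GRM8. The study's supplementary tables were read here in shortened form. The 13 are all the genes with a GRIA, GRIN, GRIK, GRID or GRM name and number in those tables as read. The Ensembl identifier of each is in the count table. All 13 passed the filter of at least 1 cpm (counts scaled to a common library total) in at least 3 samples, among 13891 genes that passed it and 18618 in the table. Of 26 receptor symbols looked for, the other 13, among them GRIA1, GRIN2C, GRIK2 and GRM5, were not found in the shortened tables and were not analysed here. Whether the full tables list them was not checked. The tables as read here list mainly genes that rise with age in these same birds. Of the 3515 tested genes with a symbol, 57.5% were called higher after 1 day post hatch (dph), against 35.1% of all tested genes. Some of these lists were built from the pattern of levels over the 4 ages, so the counts of receptors by direction below describe these genes and are no independent evidence of a direction for glutamate receptors at large.

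RNA was measured in the telencephalon, the forebrain region that holds the song nuclei, of male and female zebra finches at 1, 20 and 65 dph and as adults (over 170 dph by the sample labels, where the study's methods give a lower minimum age). Each of the 24 samples was RNA from 3 telencephalons of one sex and age, mixed in equal parts, and the 8 groups of one sex and one age had 3 such pools apiece. The labels name no treatment or mutation, and a pool averages over its 3 birds and over every region and cell type of the telencephalon. In a whole tissue, fewer cells of a type and less RNA per cell cannot be told apart. The counts on genes totalled 16680575 to 28772178 a sample, so that 3 counts correspond to 0.104 to 0.180 cpm, and the lowest value of any receptor in any sample was 3.73 cpm. The telencephalon markers TBR1 and EMX2 were found, and their summed level was 116 to 138 cpm in adults and 162 to 214 cpm at 1 dph. Markers of regions outside the telencephalon were not analysed here.

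Glutamate is the main excitatory transmitter of the vertebrate brain. AMPA receptors (GRIA subunits) carry most of the fast current. NMDA receptors (GRIN subunits) admit calcium when glutamate and depolarization coincide and are needed for many forms of synaptic plasticity, whereas kainate receptors (GRIK subunits) adjust transmission on both sides of the synapse. Metabotropic receptors (GRM genes) act through G proteins, and the group II (GRM2, GRM3) and group III (GRM7, GRM8) members lower cyclic AMP and often restrain transmitter release. The roles given below are known mainly from mammals.

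All 13 receptor RNAs were higher at the later ages than at 1 dph, but after 20 dph they parted. The 3 AMPA subunits measured here and GRM2 rose further to 65 dph. GRIK1, GRM3 and GRM7 fell from 20 dph onward, and GRIN1, GRIN3A and GRIK4 fell between 65 dph and adulthood. GRIN2A, GRIN2B and GRM8 had no further call between neighbouring ages. Adults were not tested against 20 dph. The effect of age, the mean log2 level at 20 dph, 65 dph and adulthood minus that at 1 dph, was called for all 13 (edgeR's quasi-likelihood test, largest adjusted p 3.37e-08, for GRIK4) and for 0 in the other direction, while 35.1% of all tested genes were called higher and 37.2% lower. The log2 fold changes ranged from 0.44 for GRM7 to 4.88 for GRM2, with a median of 1.52, against a median of -0.02 over all tested genes. In 11 of the 13 receptors, each of the 18 later samples lay above each of the 6 samples at 1 dph, which held for 21.6% of all tested genes. GRIK4 and GRM7 were the exceptions. Among tested genes with a symbol, the pool the receptors came from, 57.5% were called higher with age. The share of such separations and the median fold change in that pool were not computed.

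**Figure D1:**
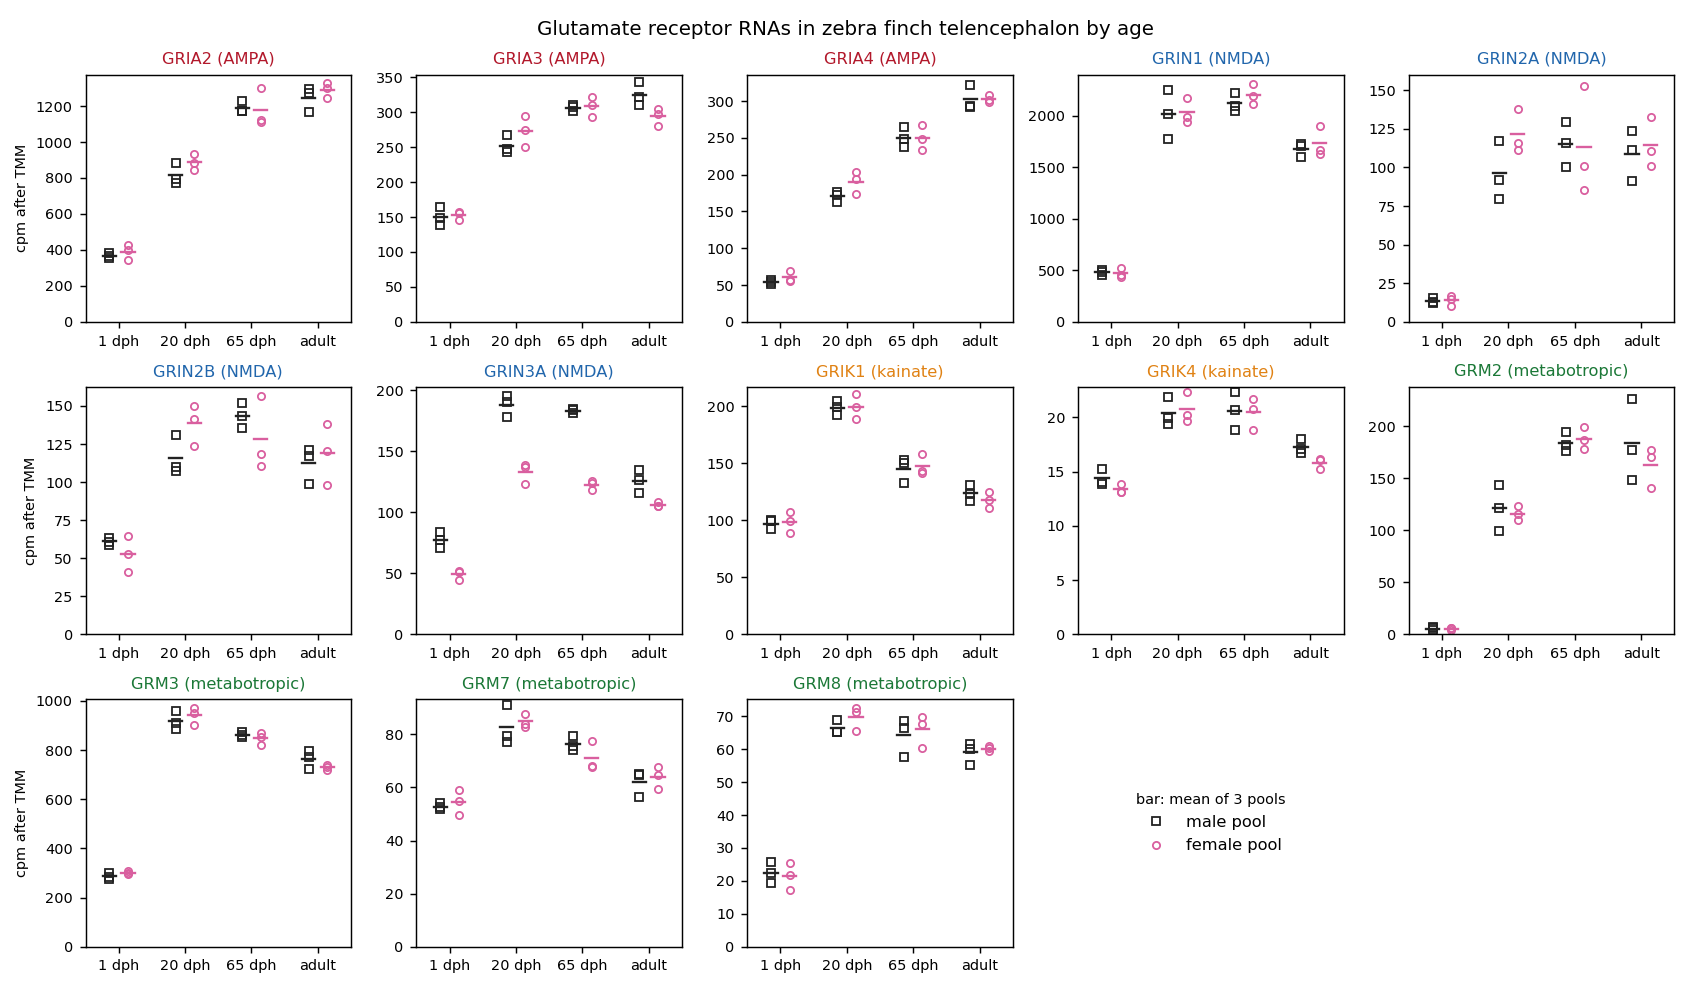
Level of each receptor RNA (cpm after TMM normalization, linear axes from 0) at 4 ages, with male pools as squares, female pools as circles and a bar at the mean of 3 pools. GRIA4 is higher at each age than at the one before, GRIK1 peaks at 20 dph with a mean of 199.3 cpm, and male pools lie above female pools at every age for GRIN3A.

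Between 1 and 20 dph all 13 receptors rose, by log2 fold changes of 0.57 to 4.48. At this step 35.9% of all tested genes rose and 38.5% fell, and the shares among genes with a symbol were not computed. From 20 to 65 dph, 4 receptors rose further (GRIA2, GRIA3, GRIA4 and GRM2), 3 fell (GRIK1, GRM3 and GRM7) and 6 were not called. Of all tested genes, 14.6% were higher and 15.4% lower at this step. From 65 dph to adulthood, GRIA4 rose, 6 receptors fell (GRIN1, GRIN3A, GRIK1, GRIK4, GRM3 and GRM7) and 6 were not called, at a background of 10.5% higher and 10.7% lower. The median log2 fold change of the 13 receptors was 1.36 at the first step, 0.08 at the second and -0.20 at the third, where the medians over all genes were -0.03, 0.01 and 0.01. For genes with a symbol, neither the shares at the later steps nor these medians were computed. The highest mean of the 4 ages fell at 20 dph for 6 receptors, at 65 dph for 4 and in adults for 3, and at 1 dph for 0. The share of all tested genes with their highest mean at each age was not computed. Only for GRIK1, GRM3, GRM7 and GRIA4 was the age of the highest mean separated by calls from its neighbouring ages.

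**Figure D2:**
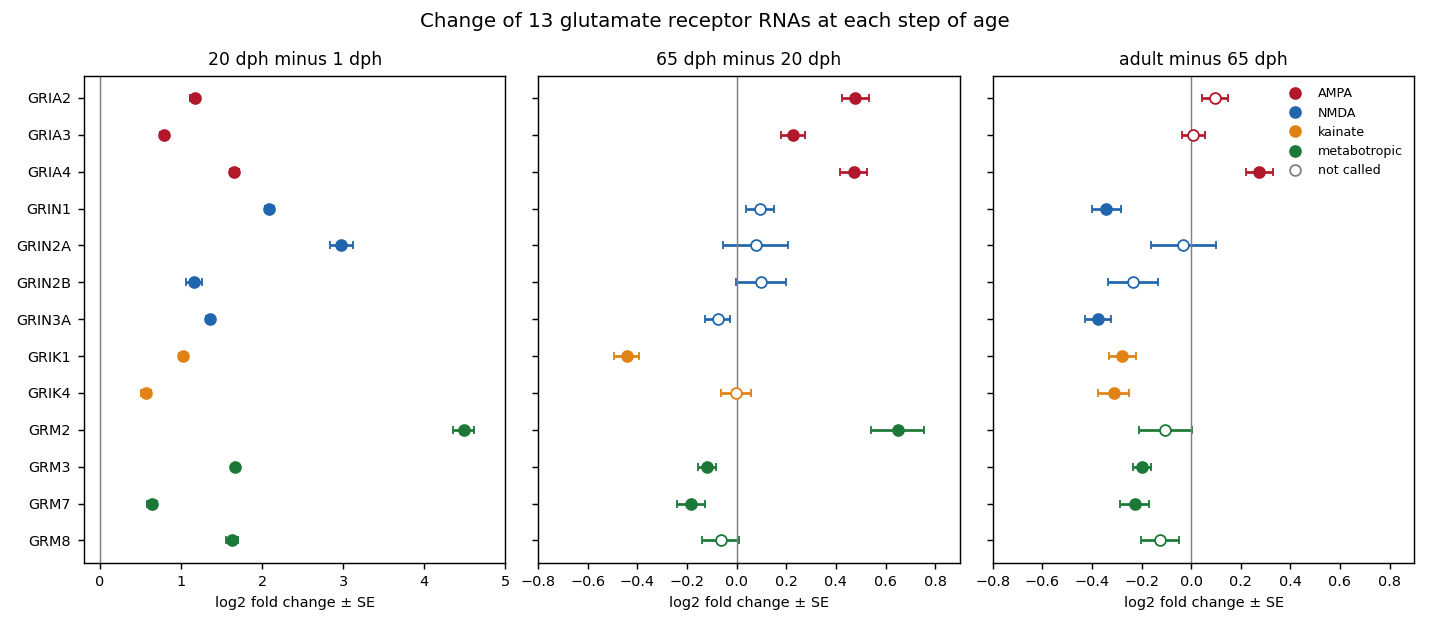
Log2 fold change with its standard error (horizontal axis) of the 13 receptor RNAs (rows) at each step between neighbouring ages, with filled points for changes called at an adjusted p of 0.05 and open points for the rest. The scale of the first panel is wider, since GRM2 rose there by 4.48, and in the third panel GRIA4 is the one filled point right of 0.

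GRIA2, GRIA3 and GRIA4 encode the pore-forming AMPA subunits measured here. Their rise from 1 to 20 dph continued to 65 dph in all 3. GRIA2 (ENSTGUG00000005484, chromosome 4), the subunit that in its edited form keeps AMPA receptors nearly impermeable to calcium, had 342 to 429 cpm at 1 dph (median 375), 773 to 935 cpm at 20 dph (median 862), 1114 to 1300 cpm at 65 dph (median 1172) and 1167 to 1326 cpm in adults (median 1283). The first 3 ages did not overlap, while 65 dph and adulthood did. GRIA2 rose at the first step (log2 fold change 1.17 ± 0.05 (SE), adjusted p = 5.56e-15) and at the second (0.48 ± 0.05, adjusted p = 6.12e-07), and the last difference of 0.10 ± 0.05 did not pass (adjusted p = 0.216).

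GRIA4 (ENSTGUG00000012676, chromosome 1), a subunit that in mammals is prominent in many inhibitory interneurons and speeds the current, was the only receptor called higher at each of the 3 steps. Its samples had 51.1 to 69.2 cpm at 1 dph (median 56.3), 163 to 203 cpm at 20 dph (median 175), 234 to 267 cpm at 65 dph (median 249) and 292 to 322 cpm in adults (median 300). No 2 ages overlapped. The steps were 1.66 ± 0.06, 0.47 ± 0.06 and 0.28 ± 0.05 on the log2 scale (adjusted p = 2.27e-17, 8.85e-07 and 0.00104), and the adult mean was 5.29 times that at 1 dph.

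GRIA3 (ENSTGUG00000003563, chromosome 4A) changed least of the AMPA subunits measured here. It had 139 to 164 cpm at 1 dph (median 152), 242 to 294 cpm at 20 dph (median 259), 293 to 322 cpm at 65 dph (median 309) and 281 to 344 cpm in adults (median 308). The samples at 20 and 65 dph touched at their edges, and the later ages overlapped fully. It rose by 0.79 ± 0.05 and 0.23 ± 0.05 on the log2 scale (adjusted p = 6.9e-13 and 0.000903) and differed by 0.01 ± 0.05 at the last step (adjusted p = 0.918). In females alone, the second step was 0.17 and was not called (adjusted p = 0.0793).

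The 4 NMDA subunits measured here rose before 20 dph, by 1.16 to 2.98 on the log2 scale. Of these 4, 0 were called between 20 and 65 dph. GRIN1 (ENSTGUG00000002568, chromosome 17), the subunit every NMDA receptor requires, had 431 to 523 cpm at 1 dph (median 470), 1776 to 2246 cpm at 20 dph (median 2002), 2048 to 2304 cpm at 65 dph (median 2150) and 1603 to 1897 cpm in adults (median 1686). Every adult sample lay below every sample at 65 dph. GRIN1 rose by 2.09 ± 0.06 (log2, adjusted p = 1.05e-18), differed by 0.09 ± 0.06 at the second step (adjusted p = 0.238) and fell by 0.34 on the log2 scale in adults (SE 0.06, adjusted p = 0.00024), to 78.9% of its peak mean.

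GRIN2A and GRIN2B are the subunits that set the kinetics of the NMDA receptor. In the rodent forebrain GRIN2B prevails at birth and GRIN2A joins during postnatal life. Here GRIN2A (ENSTGUG00000004747, chromosome 14) had 13.0, 12.1 and 15.4 cpm in male pools and 16.9, 10.5 and 14.7 cpm in female pools at 1 dph. At 20 dph it had 92.0, 79.7 and 117 cpm in male pools and 138, 116 and 111 cpm in female pools. All samples at 20 dph were several times above all at 1 dph, with the sexes interleaved. The ranges that followed were 85.7 to 153 cpm at 65 dph (median 109) and 91.0 to 133 cpm in adults (median 111), which overlap each other and 20 dph. The first step was 2.98 ± 0.15 on the log2 scale (adjusted p = 1.42e-14), and the later ones were 0.08 ± 0.13 and -0.03 ± 0.13 (adjusted p = 0.704 and 0.894).

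GRIN2B (ENSTGUG00000009456, chromosome 1A) rose less than GRIN2A. Its samples had 41.0 to 64.6 cpm at 1 dph (median 59.9), 107 to 150 cpm at 20 dph (median 127), 111 to 157 cpm at 65 dph (median 139.5) and 98.2 to 138 cpm in adults (median 119). The later 3 ages overlapped. The first step was 1.16 ± 0.10 on the log2 scale (adjusted p = 6.77e-10), followed by 0.10 ± 0.10 and -0.23 ± 0.10 (adjusted p = 0.507 and 0.106). GRIN2B did not fall by the test at any step.

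GRIN3A (ENSTGUG00000000661, chromosome Z) encodes a subunit that lowers the calcium permeability of NMDA receptors, and its gene lies on the Z chromosome, of which males have a pair and females 1 copy. It rose at the first step (1.36 ± 0.05 on the log2 scale, adjusted p = 1.53e-16), did not pass at the second (-0.08 ± 0.05, adjusted p = 0.275) and fell by 0.38 on the log2 scale at the third (SE 0.05, adjusted p = 2.32e-05), to 72.2% of its peak mean. Its levels differed by sex and are given with the sex comparison.

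Both kainate subunits measured here rose to 20 dph and were lower in adults than at 65 dph. GRIK1 (ENSTGUG00000013459, chromosome 1), a subunit that can form a receptor by itself, had 88.8 to 108 cpm at 1 dph (median 99.5), 189 to 211 cpm at 20 dph (median 199), 133 to 158 cpm at 65 dph (median 146) and 111 to 131 cpm in adults (median 121). All 4 ages were separate from one another. It rose by 1.03 ± 0.05 (log2, adjusted p = 3.2e-14), fell by 0.44 at the second step (SE 0.05, adjusted p = 1.1e-06) and fell by 0.28 at the third (SE 0.05, adjusted p = 0.000726). The adult mean was 60.7% of that at 20 dph, the lowest such share of the 13 receptors, and 1.23 times that at 1 dph.

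GRIK4 (ENSTGUG00000000432, chromosome 24), a high-affinity subunit that needs a partner subunit, had 13.1 to 15.3 cpm at 1 dph (median 13.9), 19.4 to 22.3 cpm at 20 dph (median 20.1), 18.8 to 22.3 cpm at 65 dph (median 20.8) and 15.2 to 17.96 cpm in adults (median 16.4). The adult samples lay below those at 65 dph, and the lowest of them was just under the highest sample at 1 dph. GRIK4 rose by 0.57 ± 0.06 (log2, adjusted p = 1.49e-08), differed by 0.00 ± 0.06 at the second step (adjusted p = 0.979) and fell by 0.31 on the log2 scale at the third (SE 0.06, adjusted p = 0.000999). In males alone, neither kainate fall in adults was called, at -0.23 for GRIK1 (adjusted p = 0.0579) and -0.26 for GRIK4 (adjusted p = 0.0719).

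The 2 group II metabotropic receptors moved apart. GRM2 (ENSTGUG00000006595, chromosome 12), mainly a presynaptic receptor, had the largest change of the 13. At 1 dph its samples had 3.73, 6.72 and 5.73 cpm in males and 5.79, 3.94 and 5.90 cpm in females, from 100 to 174 counts each. At 20 dph they had 99.0, 144 and 121 cpm in males and 116, 123 and 110 cpm in females. The sexes were interleaved at both ages, and the ages were far apart. The samples at 65 dph had 176 to 200 cpm (median 184), all above those at 20 dph, and adults had 141 to 227 cpm (median 174). GRM2 rose by 4.48 ± 0.13 and 0.65 ± 0.11 on the log2 scale (adjusted p = 2.11e-18 and 7.32e-05), and its last step of -0.10 ± 0.11 was not called (adjusted p = 0.528). The mean was 22.4 times that of 1 dph at 20 dph, 35.1 times at 65 dph and 32.8 times in adults.

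GRM3 (ENSTGUG00000002399, chromosome 1A), which is found on glia as well as on neurons, peaked earlier. It had 276 to 306 cpm at 1 dph (median 298), 886 to 972 cpm at 20 dph (median 931), 823 to 875 cpm at 65 dph (median 858) and 718 to 796 cpm in adults (median 736). No 2 ages overlapped. It rose by 1.66 ± 0.04 (log2, adjusted p = 1.21e-20) and then fell by 0.12 (SE 0.04, adjusted p = 0.014) and fell by 0.20 (SE 0.04, adjusted p = 0.000442). In males alone the second step was -0.09 and was not called (adjusted p = 0.247).

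The group III receptors GRM7 and GRM8, both placed at presynaptic terminals, rose to 20 dph by unequal amounts. GRM7 (ENSTGUG00000010358, chromosome 12) had 49.8 to 59.2 cpm at 1 dph (median 53.2), 77.2 to 91.1 cpm at 20 dph (median 83.4), 67.8 to 79.5 cpm at 65 dph (median 74.9) and 56.4 to 67.8 cpm in adults (median 64.5). Adult samples reached into the range of 1 dph. GRM7 rose by 0.64 ± 0.06 (log2, adjusted p = 5.12e-10), fell by 0.18 (SE 0.06, adjusted p = 0.0166) and fell by 0.23 (SE 0.06, adjusted p = 0.00636). The second step was the receptors' only step call lost with a sample left out, at -0.15 (adjusted p = 0.0588) without the male 20 dph replicate 3, and it was -0.11 in males alone (adjusted p = 0.373). The third was -0.16 in females alone (adjusted p = 0.22).

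GRM8 (ENSTGUG00000004198, chromosome 1A) had 17.3 to 25.7 cpm at 1 dph (median 22.1), 65.2 to 72.4 cpm at 20 dph (median 67.2), 57.7 to 69.9 cpm at 65 dph (median 67.1) and 55.3 to 61.6 cpm in adults (median 60.2). It rose by 1.63 ± 0.08 on the log2 scale (adjusted p = 8.96e-15). The later steps of -0.06 ± 0.08 and -0.13 ± 0.08 were not called (adjusted p = 0.562 and 0.248). Every adult sample lay below every sample at 20 dph, a difference that was not tested.

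Ratios of related receptors within a sample do not depend on the scaling between libraries. Since reads per gene also depend on its length, only changes of a ratio are read, not its level. The log2 ratio of GRIN2A over GRIN2B was -2.27 to -1.85 at 1 dph, -0.43 to -0.10 at 20 dph, -0.47 to -0.04 at 65 dph and -0.36 to 0.18 in adults. All 6 samples at 20 dph lay above all 6 at 1 dph, and the later ages overlapped. The mean ratio rose by 1.81 at the first step (exact permutation test, two-sided, p = 0.00216, the smallest that 6 against 6 samples allow, 0.00455 after Benjamini-Hochberg adjustment over 21 tests of 7 ratios). By the same exact permutation test, the differences of -0.03 at the second step (p = 0.729, adjusted 0.806) and 0.22 at the third (p = 0.0649, adjusted 0.114) did not pass. Without the male adult replicate 3 the third difference was 0.28 and passed (adjusted p = 0.0455).

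In total 11 of the 21 ratio tests passed, most of them at the first step. GRM2 over GRM3 rose by 2.82 at the first step and 0.78 at the second. GRIA4 over GRIA2 rose by 0.49 at the first step and by 0.18 at the third, where GRIA4 alone continued upward. GRIA3 over GRIA2 fell by 0.38 and then by 0.25, since GRIA3 rose less. GRIK4 over GRIK1 fell by 0.46 at the first step and rose by 0.44 at the second, so that its mean was -2.83 ± 0.05 at 65 dph and -2.81 ± 0.13 at 1 dph (SD, n = 6 each). GRM7 over GRM8 fell by 1.00 at the first step. Each of these 9 changes had an exact permutation p of 0.00216 and an adjusted p of 0.00455. GRIN3A over GRIN1 fell by 0.73 at the first step (exact permutation test, p = 0.00649, adjusted 0.0124), with the sexes apart at each age.

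**Figure D3:**
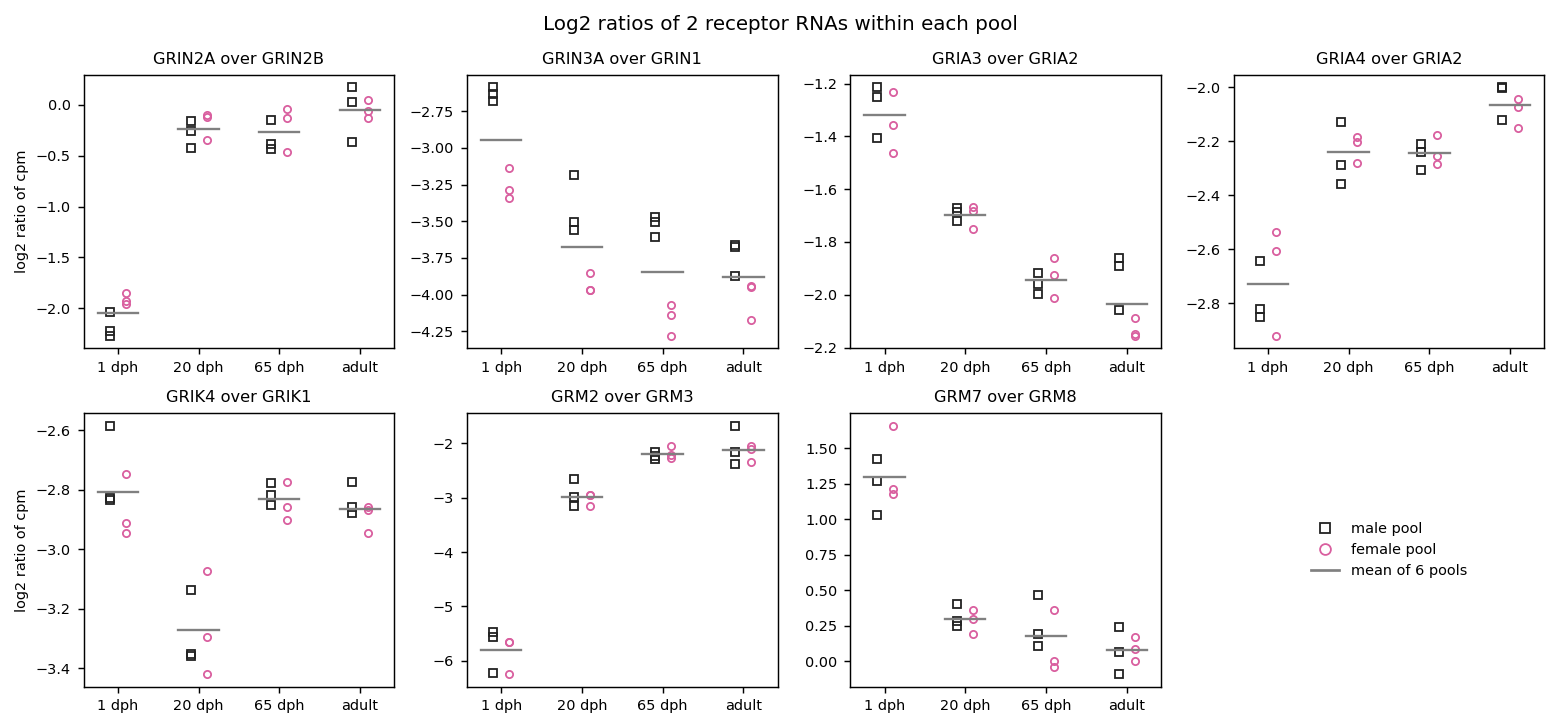
Log2 ratio of the cpm of 2 receptor RNAs within each pool (vertical axis) at 4 ages, with male pools as squares, female pools as circles and a grey line at the mean of 6 pools. GRIN2A over GRIN2B rises by 1.81 between 1 and 20 dph, its only step that passed, while GRIK4 over GRIK1 dips at 20 dph and returns.

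The sex comparison asks which receptors differ between males and females at an age. GRIN3A was the only receptor called at any age, and it was higher in males. At 1 dph it had 70.5, 84.0 and 77.5 cpm in male pools, against 44.2, 52.0 and 51.3 cpm in female pools. At 20 dph it had 178, 195 and 191 cpm in males, against 139, 138 and 124 cpm in females. No male pool reached down to a female pool. At 65 dph the values were 184, 181 and 185 cpm in males and 126, 119 and 124 cpm in females. In adults they were 116, 135 and 126 cpm in males and 105, 108 and 105 cpm in females, so that the sexes were separate at all 4 ages and closest in adults.

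On the log2 scale, GRIN3A in males minus females was 0.65 ± 0.07 (SE) at 1 dph (adjusted p = 3.93e-08), 0.50 ± 0.07 at 20 dph (adjusted p = 1.15e-06), 0.58 ± 0.07 at 65 dph (adjusted p = 1.67e-07) and 0.25 ± 0.07 in adults (adjusted p = 0.00274). The ratio of the male to the female mean was 1.57, 1.41, 1.49 and 1.18 at the 4 ages. It was 1 call among 13 receptors at each age, beside a background of called genes of 5.59% (1 dph), 4.45% (20 dph), 4.87% (65 dph) and 2.15% (adults). GRIN3A was the only receptor of the 13 on the Z chromosome, and a share over Z-linked genes alone was not computed here. The paper reports a male bias for Z-linked genes as a group, smaller in adults than at the younger ages. Neither feature is thus shown to be particular to GRIN3A. The adult call of GRIN3A rests on the adjustment within the gene. With adjustment over all genes for that age alone it was not called by edgeR (adjusted p = 0.564). DESeq2, which was also adjusted per age without the stages, did not call it either (log2 difference 0.23, adjusted p = 0.377). The DESeq2 result thus does not separate the method from the adjustment.

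The sex difference of GRIN3A was smaller in adults than its mean at the younger ages, with a change of -0.33 ± 0.08 on the log2 scale (edgeR interaction term, adjusted p = 0.0432 over all genes), a term called for 1.66% of all tested genes and for 1 of 13 receptors. That call is close to the threshold. Leaving out each of the 24 samples in turn gave -0.39 to -0.28 with adjusted p of 0.0155 to 0.237, above 0.05 in 14 of the 24 fits, the weakest without the male adult replicate 1. In females alone, the step of GRIN3A from 65 dph to adulthood was -0.21 and was not called (adjusted p = 0.0626).

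**Figure D4:**
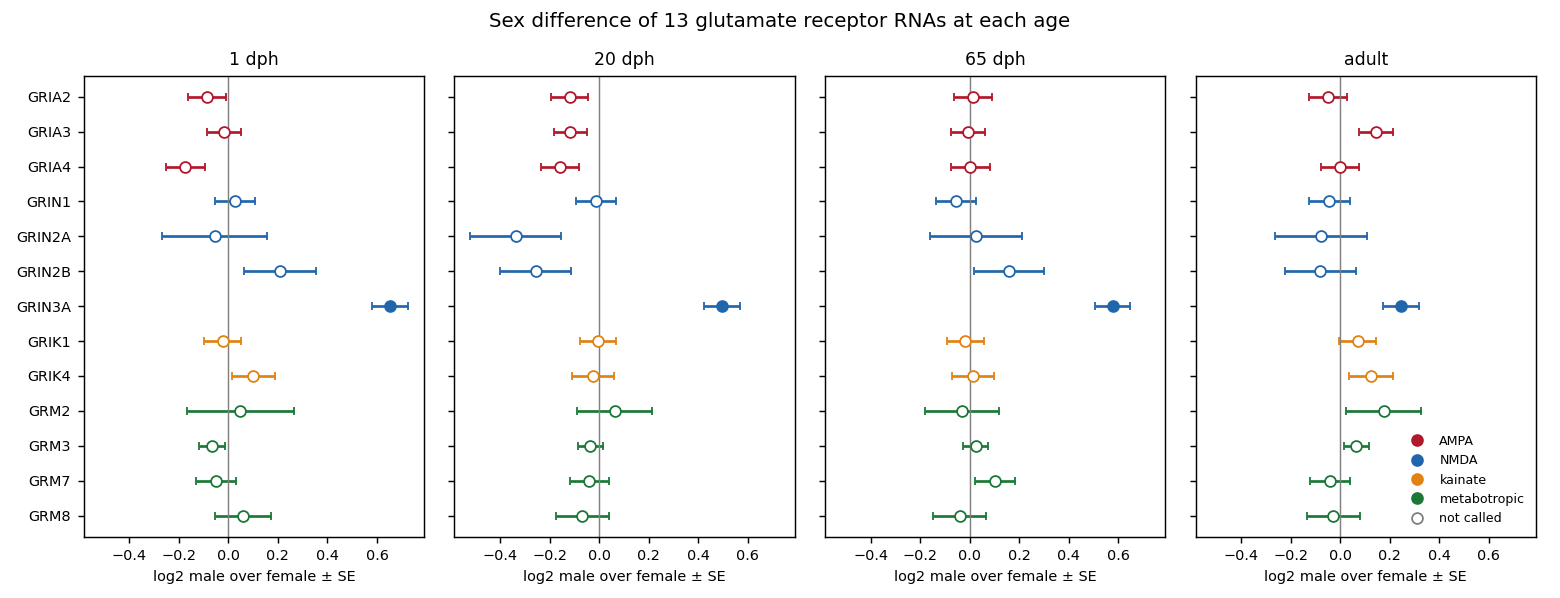
Log2 difference of males minus females with its standard error (horizontal axis) for the 13 receptor RNAs (rows) at each age, with filled points for calls and open points for the rest. GRIN3A is the one filled point in each panel, at 0.65, 0.50, 0.58 and 0.25.

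For the other 12 receptors, 48 comparisons of sex gave 0 calls by edgeR in stages and 0 with adjustment per age, and 2 had an unadjusted p under 0.05. These were GRIA4 at 1 dph (male minus female -0.17 ± 0.08 on the log2 scale, adjusted p = 0.159) and GRIA3 in adults (0.14 ± 0.07, adjusted p = 0.182). For GRIA4 at 1 dph, the female replicate 3 stood out at 69.2 cpm. The other females had 56.6 and 56.1 cpm, close to the males at 53.7, 56.4 and 51.1 cpm. GRIA3 had 322, 344 and 310 cpm in adult males, against 298, 305 and 281 cpm in adult females. The sexes did not overlap in 2 of the 48 comparisons, this one and GRIK4 in adults, neither of them called. The share of such separations over all tested genes was not computed, and 3 pools against 3 can separate by chance alone. The 48 differences ranged from -0.34 (GRIN2A at 20 dph) to 0.21 (GRIN2B at 1 dph), with standard errors of 0.05 to 0.22 and a median size of 0.05. A sex difference as small as these errors was not detectable with 3 pools a sex. Differences larger than their errors also went uncalled, as for GRIA4 at 1 dph and GRIA3 in adults. The 0 calls thus do not show equal levels in the sexes.

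Whether the rise with age itself differed by sex was tested by the age effect in males minus that in females. It was called for 0 of the 13 receptors by edgeR and for 0 by DESeq2, and for 0.0216% of all tested genes (3 genes) by edgeR. One receptor, GRIN3A, had an unadjusted p under 0.05 (-0.21 on the log2 scale, adjusted p = 0.716).

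Genes that work with these receptors are given as lists, with the same limit that their symbols come from tables rich in rising genes. The counts with age stand beside 35.1% of all tested genes and 57.5% of those with a symbol called higher. Of 15 auxiliary subunits looked for, 9 were tested, of which 7 rose and 2 fell with age, with a median log2 fold change of 1.17. CACNG3, which helps to bring AMPA receptors to the synapse, rose most (3.64 ± 0.07), with means of 36.4, 397, 523 and 444 cpm at the 4 ages. SHISA6, which holds AMPA receptors at the synapse, fell (-0.88 ± 0.07), with 14.8, 11.0, 6.64 and 7.22 cpm at the 4 ages. At the step from 65 dph to adulthood 5 of the 9 fell and 0 rose, beside 10.7% of all tested genes lower and 10.5% higher.

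Of 21 scaffold and kinase genes of the postsynaptic density, 13 were tested, 12 rose and 1 fell with age (median 1.53). CAMK2A, the kinase that calcium entry through NMDA receptors activates, rose by 3.83 ± 0.07 on the log2 scale, with means of 54.2, 631, 878 and 828 cpm at the 4 ages. HOMER3, a scaffold that binds metabotropic receptors of group I, was the one that fell (-1.77 ± 0.07), with 27.9, 11.2, 6.95 and 6.88 cpm. Of 10 genes of glutamate transport and supply, 7 were tested and 7 rose (median 1.99). SLC1A2, the main astrocytic transporter that clears glutamate, rose most (3.11 ± 0.13), with 21.2, 208, 153 and 193 cpm. From 65 dph to adulthood, 2 of the 13 scaffold and kinase genes fell and 0 rose. Of the 7 transport and supply genes, 1 fell and 0 rose at that step. Of all tested genes, 10.7% were lower and 10.5% higher there.

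Markers of cell types moved over the same ages. The summed level of the neuronal markers found (SNAP25 and SYT1, 2 of 6) was 580 to 756 cpm at 1 dph, 3002 to 3270 cpm at 20 dph, 4705 to 5158 cpm at 65 dph and 5275 to 5923 cpm in adults. Astrocyte markers (3 of 7 found, 3 higher) had 146 to 202, 531 to 697, 407 to 532 and 458 to 561 cpm at these ages. Oligodendrocyte markers (3 of 6, 3 higher) had 71.4 to 135, 1980 to 2588, 1493 to 1756 and 1268 to 1864 cpm. Both neuronal markers rose at every step.

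GABAergic markers (4 of 4 found, as 5 genes, 5 higher) had 293 to 386, 825 to 904, 997 to 1097 and 1289 to 1403 cpm at the 4 ages. Markers of glutamatergic neurons (3 of 4 found) had 1 gene higher and 2 lower, with sums of 1066 to 1253, 1589 to 1726, 1393 to 1540 and 1308 to 1449 cpm at the 4 ages. The oligodendrocyte precursor pair had 1 higher and 1 lower, with sums of 31.0 to 46.5, 43.7 to 51.1, 30.1 to 38.2 and 24.1 to 31.4 cpm. The sums for astrocytes, oligodendrocytes, their precursors and glutamatergic neurons were thus all highest at 20 dph, the age at which 6 of the 13 receptors had their highest mean. For GRIK4, GRIN3A and GRM8 among those 6, the change from 20 to 65 dph was not called. Endothelial markers (2 of 3 found) and proliferation markers (3 of 3) all fell, the last with 159 to 226 cpm at 1 dph, 11.9 to 17.6 at 20 dph, 3.97 to 6.33 at 65 dph and 2.26 to 3.92 in adults. Microglial markers were not analysed here. The part of these changes in the receptors' levels was not tested.

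The receptors differed in how closely the 3 pools of a group agreed. The pooled SD of log2 cpm within groups was 0.27 for GRIN2A, 0.25 for GRM2 and 0.20 for GRIN2B, and between 0.05 (GRM3) and 0.14 (GRM8) for the other 10. Fold changes of GRIN2A, GRM2 and GRIN2B accordingly carry the largest standard errors above. Scaling by library totals without TMM moved the median age effect of all genes to -0.27, against -0.02 with TMM, and changed no call of a receptor. It moved the smaller age effects by over 1.5 times, to 0.19 for GRM7 (0.44 with TMM), 0.21 for GRIK4 (0.46 with TMM) and 0.39 for GRIK1 (0.64 with TMM). At the step from 1 to 20 dph it gave 0.32 for GRIK4 (0.57 with TMM) and 0.40 for GRM7 (0.64 with TMM).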

How the data were processed

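Messenger RNA libraries (TruSeq stranded, single-end 75 bp) of 24 telencephalon pools were mapped by the authors with STAR 2.5.2b to Ensembl taeGut3.2.4 and counted with HTSeq 0.6.0 on Ensembl release 87. The deposited values are raw counts per gene. The strand setting of the counting is not given in the sources used here, so reads of antisense genes may be included. All 24 columns were assigned to samples, and 16680575 to 28772178 counts were on genes.

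Genes reaching 1 cpm in 3 or more samples entered the tests in R 4.3.3 with edgeR 4.0.16 (TMM, 8 group means, quasi-likelihood F test), which was checked on simulated data. The simulation gave every gene the same spread and balanced rises with falls. It therefore did not test the scaling between ages or spreads that differ by gene. Age, and sex at each of 4 ages, were tested in stages. An omnibus test with the Benjamini-Hochberg method at 0.05 came first, then Holm's method within the gene. Steps and interactions were adjusted over all genes per contrast. Standard errors are those of the fitted log2 fold change, and cpm are after TMM. Ratios used log2 cpm with a prior count of 2 and two-sided exact permutation tests. Replicates are separate pools.

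The members and lists were chosen with earlier results of these data known. Every receptor is named, and of each related list the gene with the largest rise and fall with age. Symbols and chromosomes come from the study's tables, read in shortened form, and sequences were not used here. Alternatives were DESeq2 1.42.0, its size factors, no TMM, the likelihood ratio test, no filter, adjustment per contrast, one sex alone, a prior count of 0.25 and each sample left out. The floor of 3 counts covers counting error only.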

Additional observations from a re-analysis of the deposited data

Results flagged for a closer look

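Among 52 groups of 6 samples of one age, 2 held a sample far from the others, and chance alone gives about 1 in 20 groups. GRIA4 at 1 dph had 69.2 cpm in the female replicate 3, against 51.1 to 56.6 cpm in the other 5 samples. GRM8 in adults had 55.33 cpm in the male replicate 3, against 59.5 to 61.6 cpm in the others.

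The sex difference of GRIN3A in adults was -0.331 on the log2 scale relative to the mean of the younger ages (edgeR, adjusted p = 0.0432), a call that was lost in 14 of the 24 fits with 1 sample left out (adjusted p up to 0.237).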

How the results depend on the processing

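With DESeq2's size factors, no TMM, no filter or the likelihood ratio test, every count of receptors called and every call stayed as reported. In males alone, 1 receptor fell from 20 to 65 dph instead of 3. In females alone, the rise of GRIA3 at that step was not called. The falls of GRIK1 and GRIK4 from 65 dph to adulthood were not called in males alone. Those of GRIN3A and GRM7 were not called in females alone. The adult sex count was 0 instead of 1 by edgeR with adjustment per contrast and by DESeq2, which was also adjusted per contrast. The count for the interaction of sex and adulthood was 0 to 1 over the fits that left out a sample. The third step of GRIN2A over GRIN2B ranged from 0.172 to 0.280 over these fits and passed in 1, without the male adult replicate 3 (adjusted p = 0.0455). None of these results reversed, and the causes were not tested. No paired analysis was possible because the replicate numbers only name the pools. With 16680575 counts or more a sample, no receptor was near the detection floor. With 3 pools a group, small sex differences were not detectable.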

Other observations

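Pools of one sex and age that were high in GRIN2A tended to be high in GRIN2B. The sample with the highest value was the same for both in 7 of the 8 groups. It was the same for GRIA2 and GRIN2A in 6 of 8, for GRIA2 and GRIN2B in 5 of 8 and for GRIN2A and GRM2 in 0 of 8. These pairs were chosen after the values were seen, and a share over all gene pairs was not computed. Log2 deviations from the group mean correlated at 0.79 for GRIN2A with GRIN2B and at 0.87 for GRIA2 with GRIN2B. The agreement was thus not particular to the NMDA pair. In the females at 65 dph, for example, GRIN2A had 153, 101 and 85.7 cpm and GRIN2B had 157, 111 and 118 cpm.

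The log2 ratio of GRIA2 over GRIN1, also chosen after the values were seen and not tested, averaged -0.33 ± 0.18 (1 dph), -1.25 ± 0.08 (20 dph), -0.87 ± 0.13 (65 dph) and -0.43 ± 0.09 (adults), with SD and n = 6 each. The ratio was lowest at 20 dph and higher again at each later age, when the adult samples (-0.54 to -0.31) overlapped those at 1 dph (-0.52 to -0.01).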
